A study of Mus musculus with 8 samples.

Results

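Control blood of tumor-bearing mice was compared between cells labelled Ythdf2-cKO and cells labelled wild type (WT), which were separated by hashtag within 1 droplet library. A barcode was a member if it held at least 500 gene UMIs (unique molecular identifiers, each standing for 1 captured mRNA), at least 200 genes, at most 25% mitochondrial UMIs and at least 20 hashtag UMIs. It was labelled cKO where hashtag B0302 reached at least 4 times B0301, and WT where B0301 was at least equal to B0302. The rule gave 9115 members, 5101 labelled WT and 4014 labelled cKO, out of 9719 barcodes with at least 500 gene UMIs in this library and out of 30281 cells that the same rule found in the 4 libraries of the series. It left out 507 barcodes that lay between the labels, and 142 of the cells labelled WT had a margin under 4-fold.

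Both genotypes carried floxed Ythdf2 alleles (Ythdf2 fl/fl) on the C57BL/6J background and bore subcutaneous MC38 colon carcinomas that were not irradiated. The cKO mice also carried Lyz Cre, a recombinase placed at the lysozyme 2 locus, which is active in monocytes, macrophages and neutrophils alike, so the deletion was not limited to 1 of these lineages. Viable CD45+CD11b+Ly6Chi cells, the gate used for monocytic myeloid-derived suppressor cells (mMDSCs), were sorted from blood, and several mice were pooled for each genotype. Blood IR, set beside control blood below, was the matching pair of pools from mice whose tumors had received 20 Gy, sampled 3 days later. Each group was therefore 1 pool in 1 library. No test could be made between the genotypes, and every interval given here is at the 95% level and covers counting error only, not the variation between mice.

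YTHDF2 is a reader of N6-methyladenosine (m6A), the most common internal mark of mRNA. It binds methylated transcripts and recruits the CCR4-NOT deadenylase, which shortens their poly(A) tails and speeds their decay. Neutrophils fill their granules in successive waves while they mature in bone marrow: myeloperoxidase and elastase are made first, lactoferrin, cathelicidin and neutrophilic granule protein next, and gelatinase last. The mRNAs of the earlier waves are normally shut off before the cell enters the blood, whereas circulating cells that are stimulated switch on immediate-early genes and inflammatory mediators within minutes.

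The promoters of 3 of the granule genes that set the cells labelled cKO apart are shown first, since the leading group of genes below is built around them. The windows were taken from RefSeq (build GRCm38.p6) and run from 250 bases before to 50 bases after the annotated start. The letters TTGCNNAA, a relaxed form of the palindrome bound by C/EBP factors of myeloid cells, were searched on both strands and are in capitals. The Ngp window is chr9:110419558-110419857 on the plus strand, the Ltf window chr9:111019042-111019341 on the plus strand, and the Lcn2 window chr2:32387690-32387989 on the minus strand.
Ngp: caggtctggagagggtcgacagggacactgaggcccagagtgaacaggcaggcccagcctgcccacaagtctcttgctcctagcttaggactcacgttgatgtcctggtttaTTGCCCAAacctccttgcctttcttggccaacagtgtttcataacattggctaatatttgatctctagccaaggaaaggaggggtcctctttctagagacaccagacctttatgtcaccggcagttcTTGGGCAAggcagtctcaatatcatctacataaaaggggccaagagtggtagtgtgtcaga
Ltf: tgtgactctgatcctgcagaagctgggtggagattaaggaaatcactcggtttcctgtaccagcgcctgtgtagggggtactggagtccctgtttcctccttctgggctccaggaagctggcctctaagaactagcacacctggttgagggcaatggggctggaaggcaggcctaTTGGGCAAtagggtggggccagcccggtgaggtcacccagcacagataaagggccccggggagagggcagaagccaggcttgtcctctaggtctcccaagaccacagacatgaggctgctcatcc
Lcn2: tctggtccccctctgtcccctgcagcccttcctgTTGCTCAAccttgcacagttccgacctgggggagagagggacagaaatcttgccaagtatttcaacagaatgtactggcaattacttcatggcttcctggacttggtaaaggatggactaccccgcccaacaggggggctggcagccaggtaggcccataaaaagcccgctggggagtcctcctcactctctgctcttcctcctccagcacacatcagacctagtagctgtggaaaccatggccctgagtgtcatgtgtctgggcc
Ngp held 2 matches, which began 138 and 11 bases before the start, Ltf held 1 at 75 bases and Lcn2 held 1 at 216 bases. Of the 15 genes of the granule list with a window, 7 held the letters (Ltf, Ngp, Lcn2, Mmp8, Fcnb, Anxa1 and Retnlg), a share of 46.7%, against 12.2% of 27025 gene symbols with a window. The Camp window held none. These letters were chosen after the values of the genes had been seen, and a match describes the sequence and is not evidence of a bound site. The interferon list served as the other case. The letters GAAA repeated after any 2 bases, part of the element bound by interferon-activated STAT and IRF factors, was found in 22 of its 35 windows (62.9%), in none of the 15 granule windows and in 3.99% of all symbols. For Isg15, a ubiquitin-like interferon-induced protein, the stretch chr4:156200862-156200921 on the minus strand holds overlapping matches, again in capitals.
Isg15: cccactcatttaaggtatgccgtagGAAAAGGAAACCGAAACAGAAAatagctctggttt

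The genes behind the genotype labels were checked first. Ythdf2 (ENSMUSG00000040025, chr4:132184912-132212303, minus strand, mm10) had 809 UMIs in the cells labelled WT and 6108 in the cells labelled cKO. That is 34.0 CPM (the label's UMIs of a gene scaled to counts per 1e6 of its gene UMIs, interval 31.7 to 36.4) and 301.98 CPM (294 to 310), a log2 ratio of cKO over WT of 3.15 (3.05 to 3.26). The gene that was to be deleted was thus 8.89-fold higher in the cells labelled cKO, and a UMI was found in 1913 of 4014 of them against 618 of 5101. The libraries read the 3′ end of transcripts, and a tag outside the deleted stretch does not check the deletion. The log2 ratio was 3.26 for blood IR, 2.70 for unirradiated tumors and 2.62 for irradiated ones. Because of this result the groups are called by their labels throughout, and an exchange of the labels would turn the sign of every ratio given here.

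Lyz2 (ENSMUSG00000069516, chr10:117277331-117282321, minus strand), which encodes lysozyme and carries the Cre in the cKO mice, was nearly absent under the cKO label, with 13811 CPM for WT and 146 CPM for cKO, which gives a log2 ratio of −6.56 (−6.62 to −6.51). Of the 4014 cells labelled cKO, 2727 had no Lyz2 UMI, and the 100 cells with the most held 51.8% of the label's Lyz2 UMIs. Lyz2 also followed the hashtag margin. It was at 14149 CPM in cells labelled WT with a 4-fold margin, 8144 CPM in those with a smaller margin, 4949 CPM in the barcodes left out, 1391 CPM in the 37 cells labelled cKO with a margin of 4 to 8 and 117 CPM beyond that. Free RNA, read from barcodes with few UMIs, held 7036 CPM of Lyz2 and 112 CPM of Ythdf2. The Cre allele is an insertion into Lyz2, and the low Lyz2 level lies on the side that the labels give. The neighboring paralog Lyz1 went the other way, from 11.2 to 164 CPM, a log2 ratio of 3.86 (3.69 to 4.05). Lyz1 and Lyz2 are near-identical copies, and how their reads were divided between them was not tested.

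The genes beside these loci did not share their differences. The 10 measured genes nearest to Ythdf2 had log2 ratios between −0.28 (Snhg12) and 0.32 (Sdc3). Around Lyz2, setting Lyz1 aside, the ratios ran from −0.42 (Rab3ip) to 0.63 (Nup107, 127 and 168 UMIs), with Yeats4 at 0.60. The other m6A genes were near 0 as well. Of 15 members of the list of readers, writers and erasers with enough UMIs, Ythdf2 alone was past the limit defined below, and Ythdf1, Ythdf3, Mettl3 and Alkbh5 were at −0.15, −0.10, 0.01 and −0.18. None of 12 deadenylation and decay partners was past it, with Cnot1 at −0.01. Over all genes 2.12% were past the limit.

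Across all genes the labels differed in few. A gene was counted where its log2 ratio was at least 1 in size and it had at least 100 UMIs over both labels, a limit of size and not a test. All log2 ratios were taken after adding 1 UMI to each sum. Of 9775 genes with enough UMIs, 207 (2.12%) were past it, 62 (0.634%) higher and 145 (1.48%) lower in the cells labelled cKO. The median log2 ratio was 0.01, and 91.8% of genes lay within 0.5 of 0. The labels were of like depth, with 23813061 and 20226489 gene UMIs and medians of 2844 and 3172 UMIs per cell for WT and cKO, and mitochondrial UMIs had medians of 0.211% and 0.279%. Few member barcodes recurred as members of another library, 24 of them in blood IR, 16 in the unirradiated and 24 in the irradiated tumor library.

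**Figure D1:**
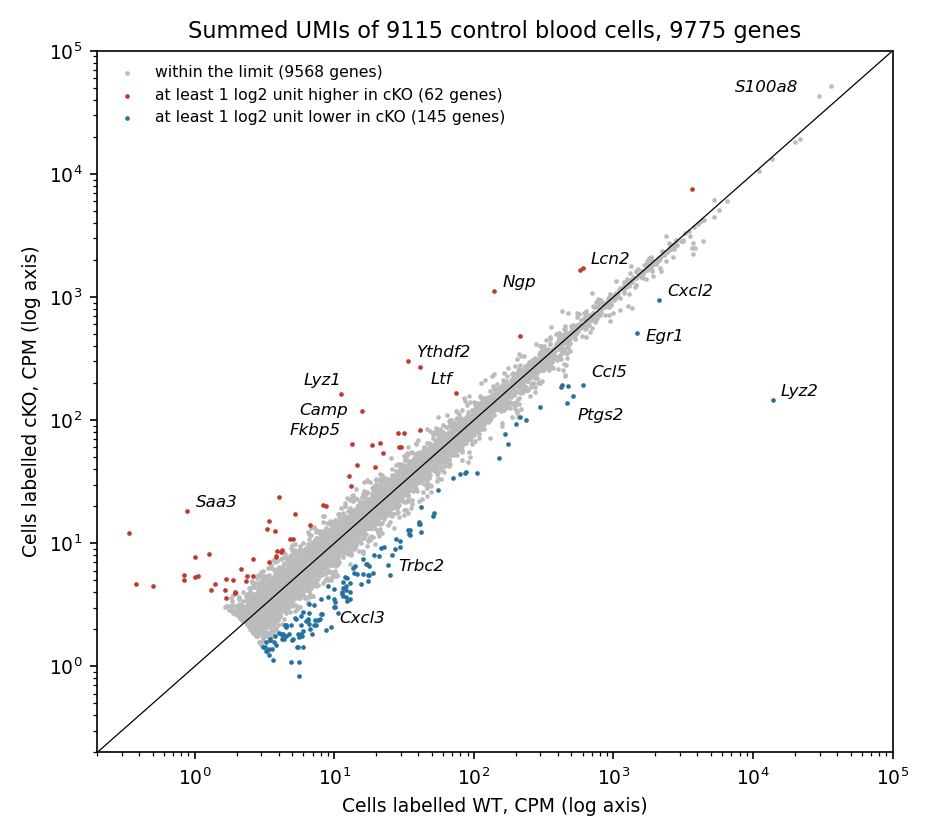
Summed expression of each of 9775 genes in cells labelled WT (x axis, CPM) and cells labelled cKO (y axis, CPM), both on log axes, with the line of equal level. The 62 red genes and 145 blue genes are past the limit. Granule genes such as Ngp, Ltf, Camp and Lcn2 lie above the line with Ythdf2 and Lyz1, and Lyz2 lies far below it.

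Most of the sorted cells carried neutrophil and not monocyte markers. Clustered without Ythdf2, Lyz1 and Lyz2, 67.7% (66.4 to 69.0) of the cells labelled WT and 67.3% (65.9 to 68.8) of those labelled cKO were neutrophil-like, a difference of −0.39 percentage points (−2.33 to 1.54). Classical monocyte-like cells, which match the Ly6Chi gate, made up 11.9% and 12.1%. Ly6c2, which encodes the antigen of the gate, was at 1704 and 1491 CPM in classical monocyte-like cells of WT and cKO and at 114 and 231 CPM in neutrophil-like cells. Ly6g, the antigen of neutrophils, was at 31.6 and 78.3 CPM over all cells (1.31) and at 76.4 and 189 CPM in the neutrophil-like class. Nonclassical monocyte-like cells, the patrolling type that expresses Ace and Treml4, made up 11.1% (10.2 to 11.9) of WT and 15.9% (14.8 to 17.1) of cKO, 4.86 points more (3.45 to 6.29). At a coarser clustering this difference was 1.45 points and that of the classical class 3.56, so the border between the monocyte classes moved with the setting.

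Of the smaller classes, the NK cell-like, T cell-like and dendritic cell-like ones were thinner among the cells labelled cKO. NK cell-like cells made up 4.35% of WT (222 cells) and 1.52% of cKO (61 cells), a difference of −2.83 points (−3.52 to −2.15). T cell-like cells numbered 46 and 10 (−0.65 points, −0.97 to −0.35) and dendritic cell-like cells 106 and 49 (−0.86 points, −1.38 to −0.33). B cell-like cells numbered 32 and 22, a difference of −0.08 points with an interval from −0.40 to 0.26. A cluster of 85 cells led by mitochondrial genes stayed unnamed, with 52 and 33 cells (−0.20 points, −0.59 to 0.21). CD11b is also found on NK cells, so they can pass the gate, whereas T and B cells mostly lack it.

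**Figure D2:**
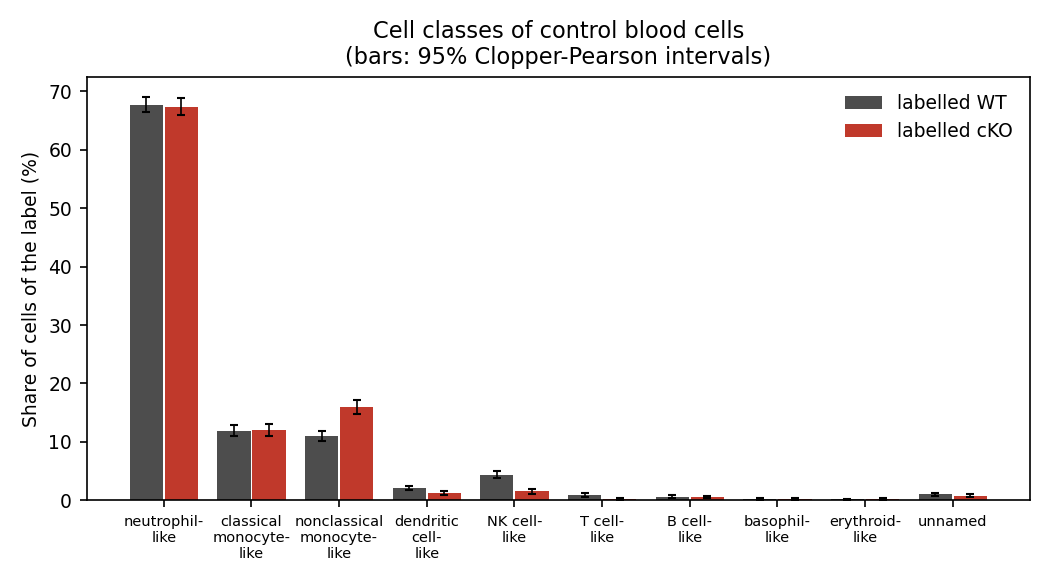
Share of the cells of each label (y axis, percent) in each class (x axis), with Clopper-Pearson 95% intervals as bars. The neutrophil-like bars stand level at 67.7% and 67.3%, the nonclassical monocyte-like bar is taller for cKO and the NK cell-like bar is taller for WT.

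Genes of neutrophil granules were prominent in the group that was higher in the cells labelled cKO. Of the 17 members of the granule list with enough UMIs, 12 were past the limit upward and none downward, beside 0.634% of all genes, and the list's median log2 ratio was 1.46 against 0.01 for all genes. Elane is among the 12 and had enough UMIs only through a single cell labelled cKO, described below. The list's 18 genes together held 8533 CPM in WT and 17187 CPM in cKO. Ngp, which encodes neutrophilic granule protein, had 3339 UMIs in WT and 22702 in cKO, 140 CPM (136 to 145) and 1122 CPM (1108 to 1137), a log2 ratio of 3.0 (2.95 to 3.05). Camp, the cathelicidin precursor, was at 15.7 and 119 CPM (2.91, 2.76 to 3.08). Ltf, lactoferrin, an iron-binding protein of the secondary granules, was at 41.2 and 270 CPM (2.71, 2.61 to 2.81). Itgb2l, an integrin-like gene of immature neutrophils, was at 4.03 and 23.6 CPM (2.54).

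Other granule genes differed by less. Lcn2, a siderophore-binding lipocalin, was at 600 and 1712 CPM (1.51, 1.48 to 1.54), and Wfdc21, a small whey acidic protein, at 576 and 1648 CPM (1.52). Mmp8, a collagenase, was at 214 and 480 CPM (1.17), Cd177, a surface glycoprotein, at 74.3 and 165 CPM (1.15), and Retnlg, a resistin-like secreted protein, at 3664 and 7506 CPM (1.03). Mmp9, the gelatinase of the last wave, was level at 695 and 702 CPM (0.02, −0.02 to 0.05). The ratios of these genes thus reached from 1.52 for Wfdc21 down to 0.02 for Mmp9.

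The first-wave genes were scarce and were found mainly in classical monocyte-like cells. Elane, neutrophil elastase, had 12 and 91 UMIs, Ctsg, cathepsin G, 51 and 125, and Mpo, myeloperoxidase, 4 and 91, which is under the minimum. In classical monocyte-like cells Elane was at 1.84 and 17.8 CPM, but 58 of its UMIs came from a single cell labelled cKO. Without the cell with the most UMIs in each label its log2 ratio there was 1.93 in place of 3.16. Prtn3, proteinase 3, was broader, at 37.1 and 123 CPM in classical monocyte-like cells (1.72). All 3 measured markers of progenitors (Elane, Prtn3 and Ctsg, which are also granule genes) were past the limit upward, beside 0.634% of all genes. Elane reached the minimum of UMIs only with the single cell that held 58 of them. With 12 UMIs in WT it could be counted only as higher. The minimum thus partly set the count of 3, which cannot be weighed against the share of all genes.

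The granule genes were also read within the neutrophil-like class, whose share was 67.7% and 67.3%. Within this class 10 of 13 measured members were past the limit upward, none downward, beside 1.76% of all genes upward, and the median was 1.58 against −0.12 for all 6247 genes measured there. Ngp was at 347 and 2696 CPM, Ltf at 105 and 645 CPM, Lcn2 at 1416 and 4134 CPM, and Cd177 at 51.1 and 286 CPM (2.48). Chil3, a chitinase-like protein, was at 29.2 and 241 CPM (3.04) in this class while it differed by 0.64 over all cells, since monocytes also express it. Orm1, an acute-phase orosomucoid, had 4 and 234 UMIs in 2 and 46 cells. Mcam, an adhesion molecule, was at 3.70 and 32.1 CPM (3.08), and Serpinb1a, an inhibitor of the granule serine proteases, at 13.1 and 93.3 CPM (2.83).

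Few cells carried most of the Ngp, Ltf and Camp UMIs, whereas Lcn2 and Mmp8 were found in many more cells. With each neutrophil-like cell thinned to 1000 UMIs (45 and 20 shallower cells left out), a Ngp UMI was found in 2.05% (1.60 to 2.59) of the cells labelled WT and in 14.9% (13.6 to 16.4) of those labelled cKO. Unthinned the shares were 4.46% and 23.6%. The 5% of neutrophil-like cells labelled cKO with the most Ngp held 90.8% of its UMIs. Ltf was found in 0.587% and 3.28% of thinned cells and Camp in 0.469% and 2.98%. Lcn2 was found in 43.5% and 64.1% and Mmp8 in 23.4% and 36.5%. In NK cell-like cells, which should lack these mRNAs, thinned shares were 0.455% and 1.67% for Ngp, 1 of 220 and 1 of 60 cells. For Lcn2 they were 4.09% (1.89 to 7.62) and 8.33% (2.76 to 18.4), 9 and 5 cells. Median depths were 2456 and 2597 UMIs in neutrophil-like cells and 3275 and 3220 UMIs in NK cell-like cells, and free RNA in this library held 405 CPM of Ngp.

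Different neutrophil clusters held most of the class in the 2 labels. Of the neutrophil-like cells labelled WT, 50.3% were in the cluster led by Ptgs2, Csf1 and Il1b and 31.7% in that led by Stfa2l1, Acod1 and Cxcl2. Of those labelled cKO, 37.0% were in the cluster led by Crispld2, Lrg1 and Wfdc21, which held 1.71% of WT, and 14.3% in that led by Ngp, Ltf and Camp, which held 1.19%. The genes that define these clusters are among those that differ, so the cluster shares restate the gene levels and are not a further result.

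Other genes were higher outside the granule list. Fkbp5, a co-chaperone of the glucocorticoid receptor that glucocorticoids induce, was at 13.3 and 64.6 CPM (2.27, 2.10 to 2.46), and its ratio was past the limit in neutrophil-like (2.31), classical monocyte-like (2.70) and nonclassical monocyte-like cells (2.27). A Fkbp5 UMI was found in 859 cells labelled cKO and 268 labelled WT. Crispld2, a secreted glycoprotein, was at 18.5 and 62.9 CPM (1.76), and 1700047M11Rik, a long noncoding RNA, at 3.40 and 15.03 CPM (2.13). Saa3, an acute-phase serum amyloid, had the largest ratio of the genes with at least 300 UMIs, 4.30 (3.73 to 5.08), with 21 UMIs in 15 cells labelled WT and 368 UMIs in 57 cells labelled cKO, of which 1 cell held 90. As a mean of per-cell CPM its ratio was 3.24. It was found mostly in monocytes, at 43.4 CPM in classical and 22.9 CPM in nonclassical monocyte-like cells labelled cKO and 0.632 CPM in neutrophil-like cells.

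In 1 gene a single cell decided the result. Xcl1, lymphotactin, a chemokine of NK and T cells, had 90 UMIs in WT and 254 in cKO (1.72), but 206 of the latter came from 1 NK cell-like cell. Without the cell with the most UMIs in each label the log2 ratio was −0.51. The same held in part for the chemokine ligands Ccl4 and Ccl3 within NK cell-like cells, at log2 ratios of 2.79 and 2.17 with this cell class whole and 1.35 and 0.93 without those cells, as single cells held 571 and 104 UMIs. Among nonclassical monocyte-like cells labelled cKO, 356 Ltf UMIs came from 6 cells and 1358 Ngp UMIs from 28 cells, with up to 609 in 1 cell, so the granule ratios of that class rested on few barcodes.

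**Figure D3:**
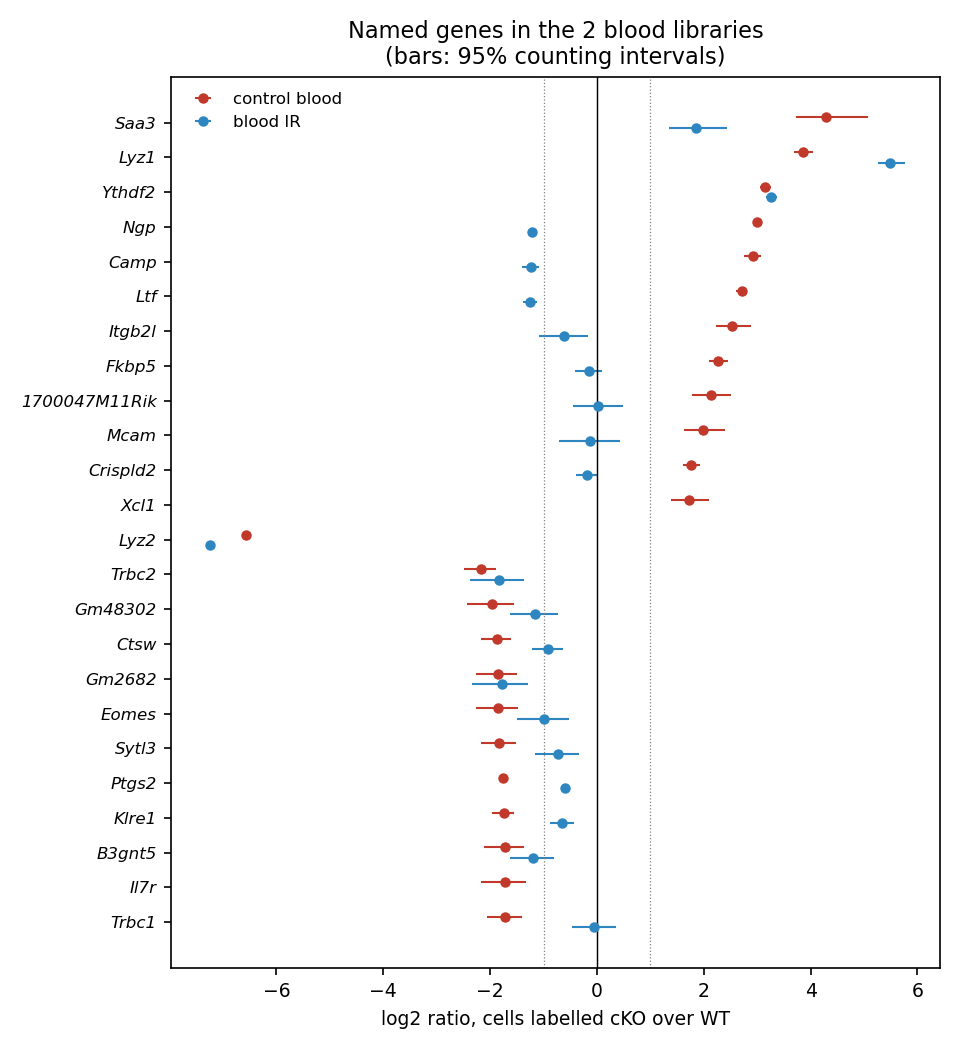
Log2 ratio of cKO over WT (x axis) of the 12 highest and 12 lowest genes with at least 300 UMIs, in control blood (red) and blood IR (blue), with 95% counting intervals. Ngp, Camp and Ltf lie near 3 in control blood and near −1.2 in blood IR, while Ythdf2, Lyz1 and Lyz2 keep their side. Xcl1 and Il7r had too few UMIs in blood IR to be drawn.

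Genes of NK and T cells were among the lower group. All 8 NK cell markers and 6 of 7 measured T cell markers were past the limit downward, beside 1.48% of all genes, and the summed NK markers were at 854 and 271 CPM. Trbc2 and Trbc1, T cell receptor beta constant segments, had log2 ratios of −2.17 and −1.72, and Ctsw, a cathepsin of cytotoxic cells, Eomes, a transcription factor of NK and memory T cells, and Klre1, an NK receptor, had −1.87, −1.85 and −1.75. Gzma, granzyme A, was at 512 and 157 CPM (−1.70), and Ccl5, which recruits T cells and monocytes, at 600 and 193 CPM (−1.63). Within NK cell-like cells the same genes were level, with Gzma at 14770 and 13673 CPM (−0.11), Ccl5 at −0.05, Nkg7 at 0.02, Klre1 at −0.17 and Eomes at −0.32. Of the 145 lower genes, 75 were measured in NK cell-like cells and 1 of these was past the limit downward there, beside 0.291% of all genes of that class. In a sum over all cells alone, fewer cells of a type and less RNA per cell cannot be told apart. The median of the 8 NK markers was −1.65 in that sum. With each label weighted to the class mix of the WT cells it was −0.06. The NK cell-like values rested on 222 and 61 cells.

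Weighting each label to the class mix of the WT cells left a different balance. Of the 145 lower genes 41 stayed past the limit, with a median of −0.18, and of the 62 higher genes 54 did, with a median of 1.5. Over all genes the weighted sums gave 61 higher and 46 lower. Leaving out all but the neutrophil-like and monocyte-like cells, an alternative chosen after the data had been seen, gave 76 higher and 57 lower.

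Several inflammatory mediators of neutrophils and monocytes were also lower. Ptgs2, which encodes cyclooxygenase 2, had 11091 UMIs in WT and 2774 in cKO, 466 CPM (457 to 475) and 137 CPM (132 to 142), a log2 ratio of −1.76 (−1.82 to −1.70). Its ratio was −1.82 in neutrophil-like, −1.41 in classical and −1.45 in nonclassical monocyte-like cells. After thinning, Ptgs2 was found in 47.6% (45.9 to 49.3) of neutrophil-like cells labelled WT and 18.7% (17.2 to 20.2) of those labelled cKO. In NK cell-like cells the shares were 1.36% and 1.67%, 3 of 220 and 1 of 60 cells. Acod1, which makes itaconate, was at 104 and 37.3 CPM (−1.48), Trem1, an amplifying receptor of myeloid cells, at 422 and 187 CPM (−1.17), Vegfa, an angiogenic factor, at 21.7 and 9.15 CPM (−1.24), and Thbs1, thrombospondin 1, at 177 and 63.5 CPM (−1.48). B3gnt5, a glycosyltransferase, and Gm48302, an RNA from within an intron, were at −1.72 and −1.96.

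Most immediate-early genes had ratios below 0, and few were past the limit. Of 12 members of the immediate-early and heat shock list, 11 had a log2 ratio below 0, 2 were past the limit downward, beside 1.48% of all genes, and none upward, and the median was −0.58. The list's summed level was 18112 CPM in WT and 11728 CPM in cKO. Egr1, an early growth response transcription factor, was at 1484 and 515 CPM (−1.53, −1.56 to −1.496), Fosb at 471 and 190 CPM (−1.31), Dusp1, a phosphatase that dampens MAP kinases, at 3711 and 2215 CPM (−0.74), and Fos at 3679 and 2490 CPM (−0.56). Jun was the exception at 291 and 344 CPM (0.24). Within neutrophil-like cells 5 of 12 were past the limit downward, beside 1.78% of all genes there, and the median was −0.80, with Egr1 at 2332 and 492 CPM (−2.24). After thinning, Egr1 was found in 72.9% and 27.2% of neutrophil-like cells. In NK cell-like cells the shares were 7.73% and 6.67%, 17 of 220 and 4 of 60 cells.

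**Figure D4:**
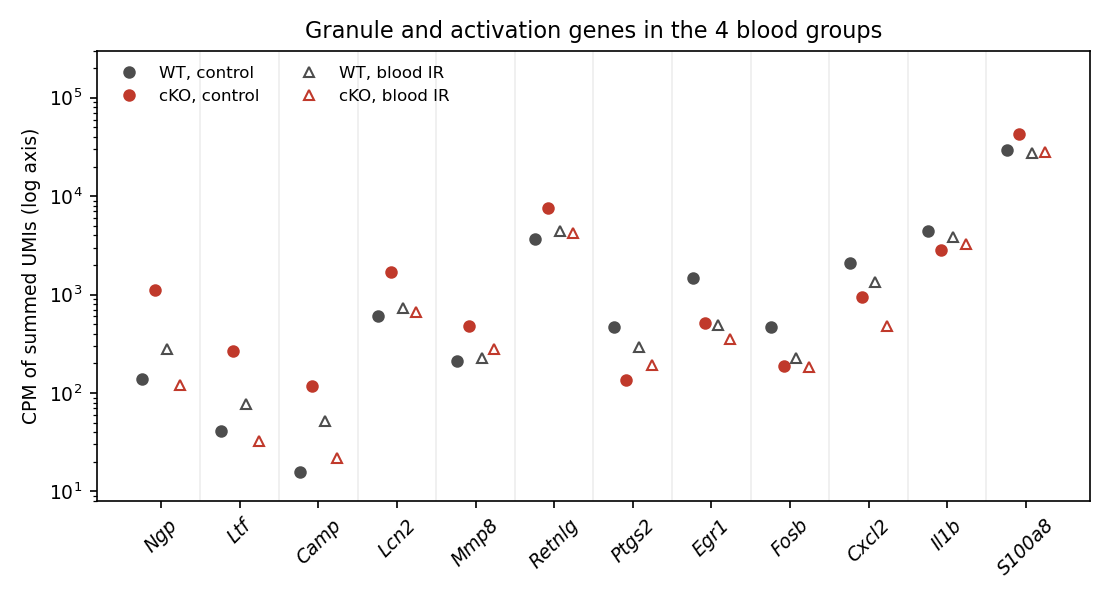
Level (y axis, CPM of summed UMIs, log axis) of 12 genes in the 4 blood groups, control as filled circles and blood IR as open triangles, WT in grey and cKO in red. For Ngp, Ltf, Camp, Lcn2 and Retnlg the control cKO point stands above the other groups, and for Egr1, Fosb and Cxcl2 the control WT point does.

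Chemokine ligands and receptors were read as 2 lists. Of 10 ligands 5 were past the limit downward, beside 1.48% of all genes, and the median was −0.73. Of 8 receptors 1 was past it, and the median was −0.39. With the class mix of WT the medians were −0.04 for the ligands and −0.11 for the receptors. So weighted, Cxcl2, Cxcl3 and Ccl2 stayed past the limit at −1.18, −2.18 and −1.25. Ccl3 was at −0.37, Ccl5 at −0.05 and Ccl4 at 0.87, where 1 NK cell-like cell labelled cKO held 571 Ccl4 UMIs. Cxcl2 and Cxcl3, which draw neutrophils through CXCR2, were at 2112 and 942 CPM (−1.16) and at 9.41 and 2.08 CPM (−2.16). Ccl2, which draws classical monocytes through CCR2, was at 86.7 and 36.9 CPM (−1.23), and in classical monocyte-like cells at 221 and 92.1 CPM (−1.26). Ccl3 was at −1.07, and Ccl5 was the lymphoid member described above. Cxcl10, an interferon-induced ligand, was at 16.3 and 24.8 CPM (0.60). Of the receptors, Ccr2 and Cxcr2 were level at −0.02 and −0.07, and only Ccr7, a lymph node homing receptor at under 1 CPM in the neutrophil-like and monocyte-like classes, was past the limit, with 153 and 48 UMIs (−1.42).

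The mature neutrophil genes were split. S100a8 and S100a9, the calprotectin subunits, were at 29460 and 43111 CPM (0.55) and at 35985 and 52086 CPM (0.53). Il1b, which encodes interleukin 1 beta, was at 4414 and 2863 CPM (−0.62), and G0s2, a lipase inhibitor, at 438 and 256 CPM (−0.78). Of 20 measured members 1 was past the limit upward (Stfa3, 98 and 171 UMIs) and 2 downward (Acod1 and Trem1), beside 0.634% and 1.48% of all genes, and the median was −0.13.

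Several gene groups that the study's question brings up had few or no members past the limit. Over all cells 2.12% of all genes were past it, so a short list with none past it lies near that share. None of 45 measured interferon response genes was past the limit over all cells, and 3 of 44 (Ifit1bl1, Ifit3b and Slfn4, at −1.06, −1.02 and −1.02) were past it downward in nonclassical monocyte-like cells, beside 0.481% of all genes there. Over all cells their median was −0.09, from −0.52 (Rsad2) to 0.24 (Oas3), with Isg15 at 218 and 167 CPM (−0.39). Of negative regulators of NF-κB that the study names, none of those given here was past the limit: Metrnl was at −0.02, Tnfaip8l2 at 0.24, Socs3 at 0.31 and Smpdl3b at 0.61 (21.7 and 33.1 CPM). The study chose these genes itself, so the list is not independent evidence of a direction. None of 13 NF-κB subunits and feedback genes was past it, and Tnfaip3, a feedback inhibitor, had the lowest ratio (−0.74). The 10 MHC class II genes had a median of 0.10 and none past the limit. Among suppressive factors Arg1 had 0 and 3 UMIs, and the others measured, Ptgs2 and Vegfa aside, lay within the limit over all cells. In nonclassical monocyte-like cells Cd274, which encodes PD-L1, was past the limit upward, at 15.4 CPM in WT and 35.6 CPM in cKO. Arg2 was past it downward there, at 25.3 and 11.6 CPM. In neutrophil-like cells Cd274 was lower in cKO but within the limit, at 36.9 and 19.6 CPM.

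The monocyte classes differed in fewer genes than the neutrophil-like class. In neutrophil-like cells 221 of 6247 genes (3.54%) were past the limit, 110 higher (1.76%) and 111 lower (1.78%), and the median of all genes was −0.12. TMM factors shift every ratio of this class by 0.12 and gave 150 higher and 79 lower. In classical monocyte-like cells 43 of 7414 (0.58%) were past it, 29 higher (0.391%) and 14 lower (0.189%), and in nonclassical monocyte-like cells 59 of 7487 (0.788%), 23 higher (0.307%) and 36 lower (0.481%). With a 4-fold margin for both labels the latter split was 34 higher and 23 lower, and without the cells of highest Scrublet score 24 higher and 20 lower. Thbs1 was lower in both monocyte classes, at 245 and 66.0 CPM (−1.89) in classical and 133 and 22.6 CPM (−2.54) in nonclassical monocyte-like cells. Nr4a2, an immediate-early nuclear receptor, was lower in all 3 classes, at −2.11 in neutrophil-like, −1.55 in classical and −1.72 in nonclassical monocyte-like cells. Ets2, a transcription factor, was at 45.9 and 16.8 CPM (−1.44) in classical monocyte-like cells.

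Of 16 nonclassical monocyte genes 14 had ratios above 0 over all cells, 2 were past the limit upward, beside 0.634% of all genes, and the median was 0.52. Their summed level went the other way, at 4918 CPM in WT and 4767 CPM in cKO. Cebpb alone made up 2683 and 2129 CPM of these sums. The shorter list of nonclassical monocyte markers, which lacks Cebpb, summed to 1772 CPM in WT and 2036 CPM in cKO. Fabp4, a lipid chaperone, was at 8.23 and 20.4 CPM (1.31), Cd300e at 5.04 and 10.8 CPM (1.10) and Ace, angiotensin-converting enzyme, at 92.1 and 158 CPM (0.78). With the class mix of WT the median was 0.23, and within nonclassical monocyte-like cells none of the 16 was past the limit, with a median of 0.26. In classical monocyte-like cells H2-Aa and H2-Ab1, MHC class II chains, were at 9.34 and 26.5 CPM (1.49) and at 11.6 and 27.3 CPM (1.22).

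**Figure D5:**
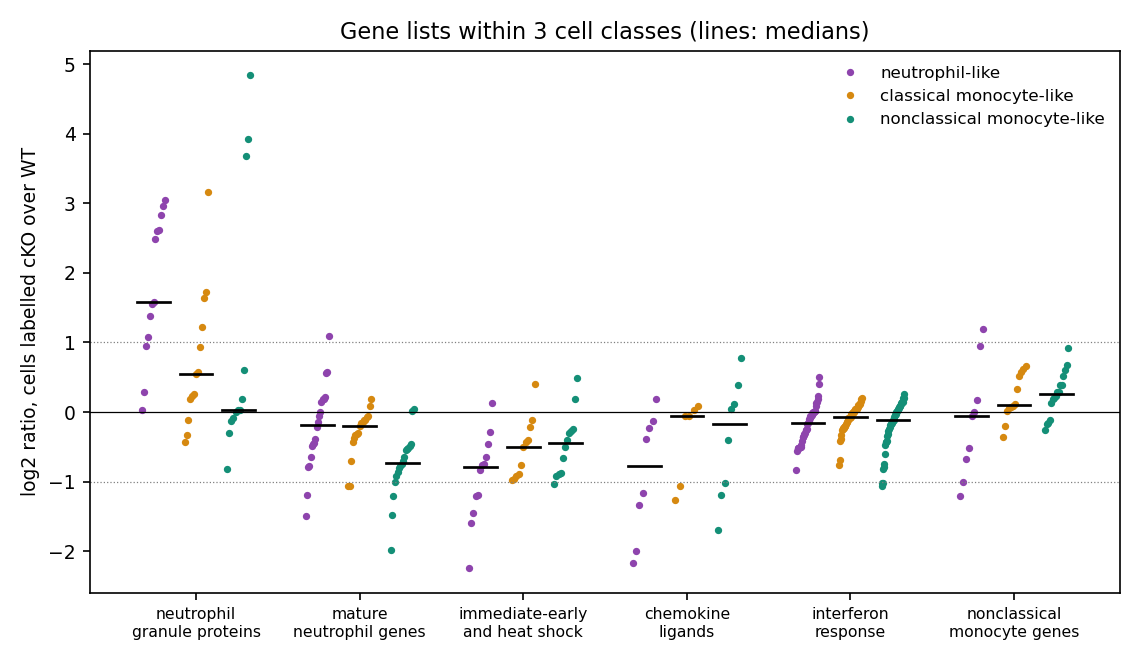
Log2 ratio of cKO over WT (y axis) of each measured member of 6 gene lists within 3 cell classes, with medians as black lines and the limit dotted. In neutrophil-like cells the granule list has a median of 1.58 and the immediate-early list one of −0.80, and the interferon list has medians of −0.16, −0.07 and −0.12 in the neutrophil-like, classical and nonclassical classes.

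In blood IR most of the higher genes of control blood were within the limit or lower, while the lower genes mostly kept their sign. Of the 62 higher genes, 53 were measured in blood IR, 24 in the same direction and 3 past the limit in it (Lyz1, Saa3 and Ythdf2), with 7 past it in the opposite direction and a median of −0.08. Ngp was at 278 CPM in WT and 120 CPM in cKO after IR (−1.21), Ltf at 76.96 and 32.3 CPM (−1.25) and Camp at 52.0 and 22.0 CPM (−1.24). Set in order, Ngp stood at 120 CPM in cKO of blood IR, 140 in WT of control blood, 278 in WT of blood IR and 1122 in cKO of control blood. The granule list had a median of −0.23 in blood IR, with none past the limit upward and 5 downward, beside 0.174% and 0.522% of all genes. Fkbp5 was at 11.9 and 10.7 CPM (−0.16) after IR.

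Of the 145 lower genes, 109 were measured in blood IR, 108 of them in the same direction, with a median of −0.83 against 0.05 for all genes. Past the limit were 26, beside 0.522% of all genes downward. The 26 include NK and T cell genes such as Gzma, Klrg1, Cd3g and Trbc2. All 8 NK cell markers were below 0 in blood IR, with a median of −0.91, and cell shares and levels within cells were not separated there. Cxcl2 was at 1343 and 484 CPM (−1.47), Thbs1 at −1.22 and Gzma at −1.02. Ptgs2 was at 290 and 192 CPM (−0.59) and Egr1 at 496 and 350 CPM (−0.51), and the immediate-early list was below 0 in 12 of 12 members, with a median of −0.34. Blood IR had 68 of 9779 genes (0.695%) past the limit, 17 higher (0.174%) and 51 lower (0.522%). The difference between the control and IR ratios was not tested, since each rests on 1 pool per genotype.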

How the data were processed

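Single-cell 3′ mRNA and hashtag libraries had been made from sorted blood and tumor cells. The authors deposited raw UMI counts per barcode, a matrix of 32285 genes and 2 hashtags with 1375701 barcodes for control blood, and the submitters' processing notes name Cell Ranger 6.0.1, Seurat 4.0.6 and mm10. The label rule above was applied and UMIs were summed per label. With 1 pool per genotype no test was made. Intervals were exact (Poisson, conditional binomial and Clopper-Pearson, and Newcombe for differences) and were computed with scipy 1.17.1.

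Cells were clustered with Seurat 5.3.0 (2000 variable genes without Ythdf2, Lyz1 and Lyz2, 40 components, resolution 0.8). A cluster was named where at least 3 of a type's markers were raised in it and conditions on its depth and leading genes were met. The cluster led by mitochondrial genes had 3 raised markers and stayed unnamed. Doublets were handled only in part by the hashtag rule, with Scrublet (scanpy 1.11.5) as an alternative. The rule cannot see doublets within 1 label. It also kept 142 cells labelled WT with a margin under 4-fold. Their median was 8190.5 UMIs, against 2820 in cells labelled WT with at least that margin. TMM factors came from edgeR 4.0.16. Named genes were the 12 highest and 12 lowest past the limit with at least 300 UMIs, members of the gene lists, and the leading genes within classes. Nr4a2, Ets2 and Thbs1 entered by the class rule, Ly6g and Ly6c2 as antigens. The ratios were tested on simulated counts drawn independently for each gene. Those counts lack the clumping of UMIs in single cells seen above, so they do not check the intervals of such genes. The members and lists were chosen with earlier results of these data known. A gene of the lists is not reported here.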

Additional observations from a re-analysis of the deposited data

Results flagged for a closer look

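The secondary granule genes stood on opposite sides of 0 in the 2 blood libraries. Ngp had a log2 ratio of cKO over WT of 3.0 in control blood and −1.21 in blood IR, Camp had 2.91 and −1.24, and Ltf had 2.71 and −1.25. All 3 were past the limit of size in both libraries. Each library held 1 pool per genotype, so the difference between them was not tested, and the libraries cannot be told apart from the treatment.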

How the results depend on the processing

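Each value rests on 1 pool of mice per genotype, so animals, hashtags and genotype cannot be told apart, and intervals are narrower than the variation between mice. No paired analysis was possible because each genotype was 1 pool with no replicate number. Genes under 100 UMIs were not measured at this depth. The count of 207 genes stayed between 180 and 243 under the other hashtag, depth, mitochondrial, Scrublet, scaling and added-count settings. It was 107 with the class mix of WT, 133 with only neutrophil-like and monocyte-like cells (chosen after seeing the data), 492 with a minimum of 20 UMIs and 112 with one of 300. The minimum of 20 gave 558 genes in neutrophil-like, 228 in classical and 247 in nonclassical monocyte-like cells. The Ythdf2 ratio was 3.30 with a 4-fold margin for both labels and 3.30 with HTODemux. The Lyz2 ratio was −7.37 with HTODemux, −6.64 with at least 2000 UMIs per barcode, −6.66 without the highest Scrublet scores, −5.95 as a mean of per-cell CPM, −6.72 with the class mix, −6.62 with only neutrophil-like and monocyte-like cells and −6.72 without the top cell of each label (also chosen after seeing the data). At resolution 0.4 the class differences were 3.56 points for classical and 1.45 for nonclassical monocyte-like cells. Reversals were Gm2682 (0.071), Klre1 (0.33) and Il7r (0.43) with only neutrophil-like and monocyte-like cells, Il7r with the class mix (0.0042) and Xcl1 without the top cell (−0.51). Fewer cells or genes in the sums follow from the alternatives' own construction. The cause of the other shifts was not tested.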

Other observations

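Markers of other cell types that the sort could hold were read as values. B cell markers had a median log2 ratio of −0.29, with none of 6 past the limit. Erythroid markers had a median of 0.57, with none of 5 past it. Over all genes 2.12% were past the limit. Platelet markers were at 1.43 and 3.71 CPM, basophil markers at 7.05 and 5.69 CPM and carcinoma markers at 0.882 and 0.544 CPM in WT and cKO. Cd209a, a lectin of monocyte-derived dendritic cells, was at 55.3 and 27.1 CPM (−1.03). With the class mix of WT its ratio was −0.21, and in classical monocyte-like cells alone it was −1.29. The proliferation list had a median of 0.17 over 5 measured genes and none past the limit.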
